A study of Dunaliella salina with 6 samples.

Results

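The genes described here encode proteins that move ions across membranes in *Dunaliella salina* Bardawil, a salt-tolerant unicellular green alga: P-type ATPases, subunits of the vacuolar H+-ATPase (V-ATPase), the H+-pumping pyrophosphatase (H+-PPase), Na+/H+ and Ca2+ exchangers, and cation and chloride channels. They were chosen by the Pfam domains listed for their transcripts in the authors' annotation, plastome genes left out, and the rule itself uses no measured value. The domains were PF00122, or PF00702 together with PF00690, for P-type ATPases, PF01813, PF01496 and PF01991 for V-ATPase subunits, PF03030 for the H+-PPase, PF00999 and PF01699 for the exchangers, and PF00520, PF08016 and PF00654 for channels. The rule found 61 of the 25081 genes in the expression table, all on chromosomes. These were 12 P-type ATPases, 3 V-ATPase subunits, 1 H+-PPase, 8 Na+/H+ exchangers, 7 Ca2+ exchangers, 26 genes with the cation channel domain PF00520 and 4 genes with the chloride channel domain PF00654. One of the PF00520 genes, DsB_g13009, also carried the polycystin channel domain PF08016. Only 31 of the 61 had a symbol and 3 had a product name. One of these products, carbonic anhydrase for DsB_g09634, does not match the P-type ATPase domains annotated on the same transcript, so this gene is called by its identifier here. The ion that it moves was not determined.

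Wild-type vegetative cells of strain UTEX LB 2538 were grown without added iron (0 µM, 3 cultures) or with 1.5 µM added iron (3 cultures). All cultures contained 1 M NaCl and were shaken at 140 rpm for 3 days at 24 °C, with the light always on at 50 µE per square metre and second. One poly(A) RNA library was made from each culture, and its expression is given as FPKM, fragments per kb of transcript and 1000000 mapped reads. FPKM is relative to the other transcripts of a library, so a change in cell number or in RNA per cell is not seen in it. The comparison asks how transcript levels differ when no iron is added.

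Ion pumps of these families set up the gradients that the other members use. P-type ATPases form a phosphorylated intermediate from ATP and move protons, calcium or metals such as copper. V-ATPases and H+-PPases acidify vacuoles, driven by ATP and by pyrophosphate. Na+/H+ and Ca2+/H+ exchangers spend these gradients to move Na+ or Ca2+, and channels let ions run down them, as in the ciliary Ca2+ channels of *Chlamydomonas*. *Dunaliella* is known for keeping Na+ low inside the cell in saline medium.

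Summed FPKM was 472982 to 537245 in the libraries without added iron and 538457 to 610113 in those with it. The steps between low FPKM values implied 18500000 to 25000000 reads per library. Replicate 3 of both groups showed a different step pattern from replicates 1 and 2, and along the first principal component (63.3% of the variance) replicate 3 without added iron lay closest to the libraries with added iron. Results are therefore also given for replicates 1 and 2 alone. The flasks were triplicates inoculated from precultures. The p-values rest on the spread between the libraries of those flasks, with the variance of each gene drawn toward a trend over all tested genes.

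Without added iron, 3 cation channel genes rose (DsB_g17628, DsB_g17626 and PKD2), and 1 P-type ATPase gene, CTP2, fell. The other 57 did not pass the test, among them every proton pump, every V-ATPase subunit and every exchanger. All 61 members had a mean of at least 1 FPKM and were tested. The test was limma on log2(FPKM + 1) with Benjamini-Hochberg adjustment over 13909 genes and a threshold of 0.05. The 4 called members make up 6.56% of the list, against 9.39% of all tested genes. By direction, 3 of 61 were higher, where 4.19% of all tested genes were, and 1 was lower, where 5.20% were. The log2 fold changes of no added iron over added iron ran from -0.51 to 0.90 with a median of 0.06, beside 0.00 for all tested genes. The values of the groups did not overlap for 17 members, 14 higher and 3 lower without added iron. That is 27.9% of the list, and the share was 30.2% among all tested genes, 14.2% higher and 16.0% lower.

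For the deposited scaling and the log2(FPKM + 1) scale, the intervals show how large the changes of the other 57 could have been. Their log2 fold changes lay between -0.31 and 0.47. The 95% interval of none of them, each taken singly, reached past 0.87 in either direction. Other settings moved the estimates, so these bounds hold for the main fit only. The H+-PPase gene VPP1 had 0.47 in it, 0.65 with columns rescaled to equal sums and 0.75 in replicates 1 and 2 alone. An unadjusted p under 0.05 was found for 10 of the 57, or 14 of all 61 members, and for 3473 of the 13909 tested genes. The balance of calls depended on scaling. With columns rescaled to equal sums, which moved the median of all tested genes to 0.17, 21 members were higher and 1 lower, where 22.9% and 3.96% of all tested genes were. With median-of-ratios factors 6 were higher and 1 lower, where 6.31% and 7.42% of all tested genes were. With quantile normalization 7 were higher and 2 lower, where 7.54% and 7.87% of all tested genes were. In replicates 1 and 2 alone 7 were higher and 1 lower, where 7.26% and 4.73% of all tested genes were. Without replicate 3 of no added iron 7 were higher and 3 lower, where 6.69% and 6.13% of all tested genes were. Leaving out any other library gave 2 higher and 1 lower, or 4.92% of the members, where 4.21% to 5.69% of all tested genes were called.

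**Figure D1:**
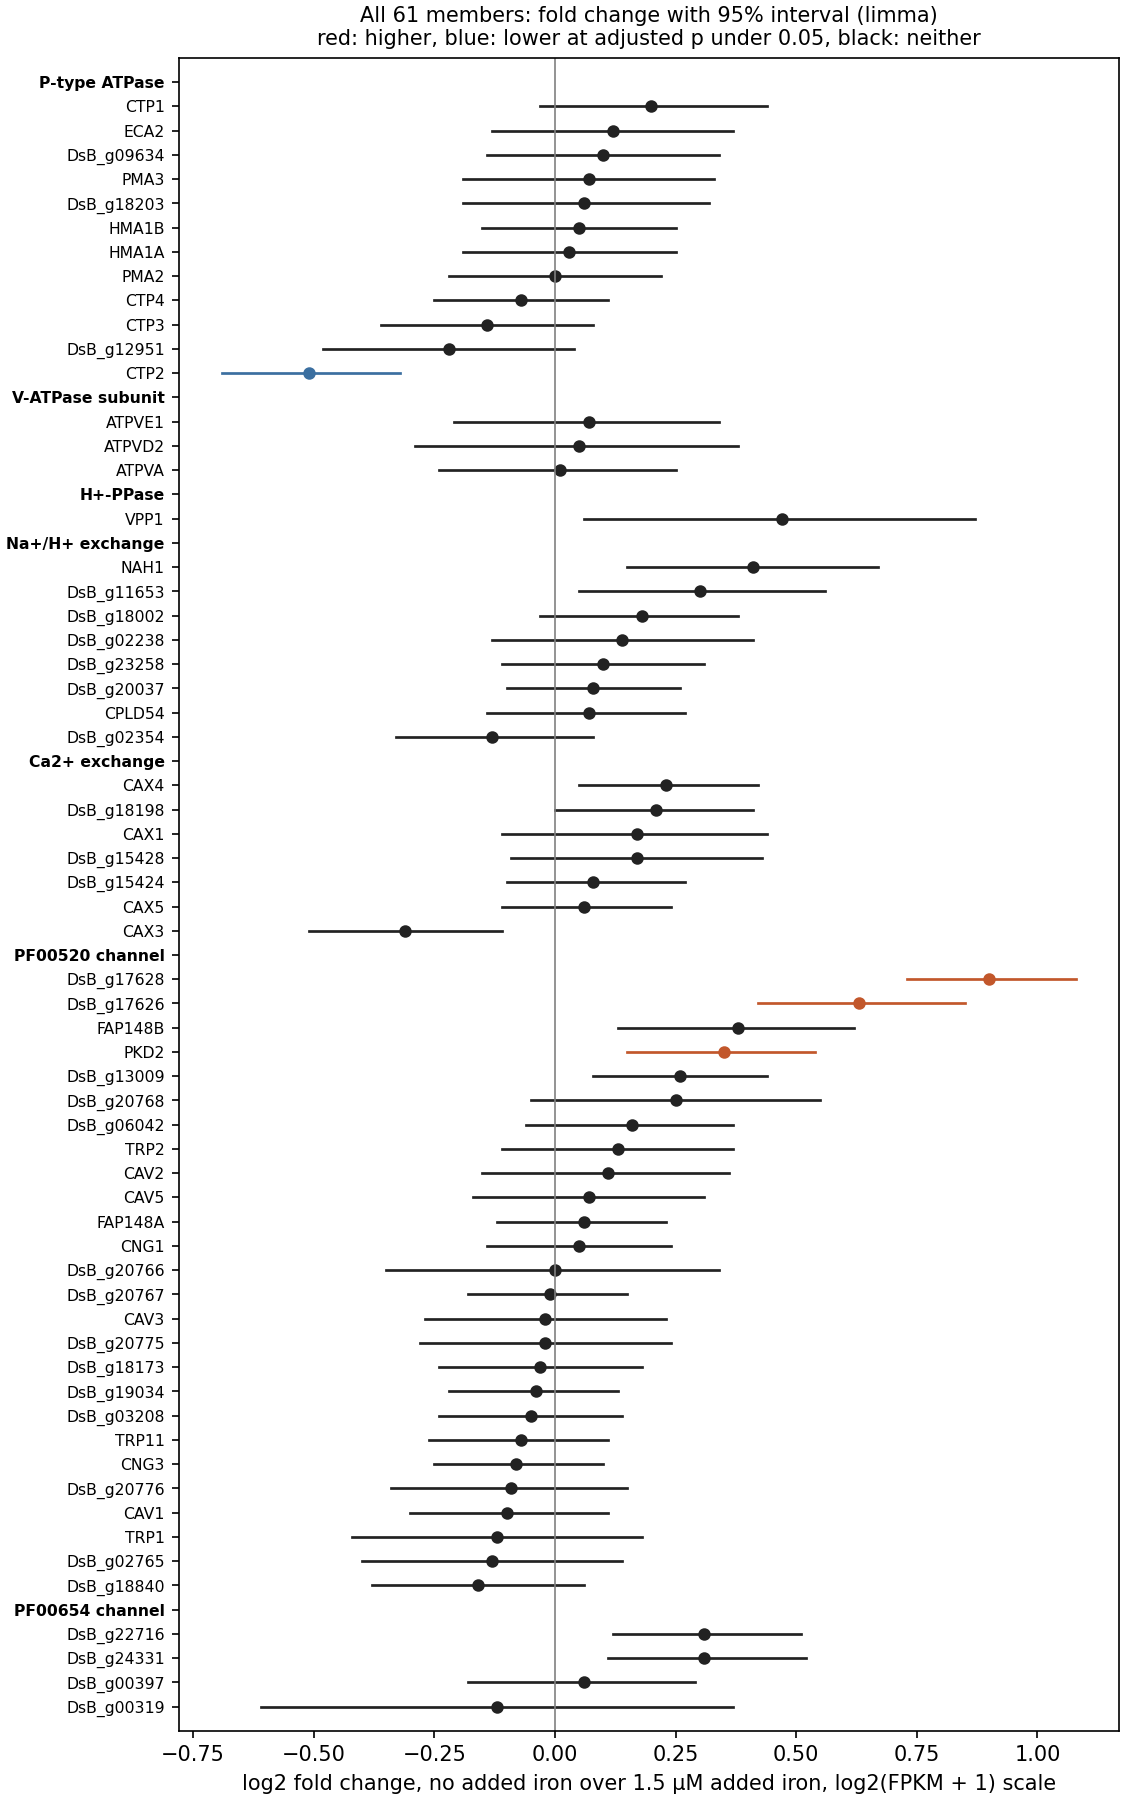
Log2 fold change of no added iron over 1.5 µM added iron on the log2(FPKM + 1) scale (horizontal axis) for each of the 61 members, grouped by family, with points for the estimate and bars for its 95% interval from limma. DsB_g17628 (0.90), DsB_g17626 (0.63), PKD2 (0.35) and CTP2 (-0.51) passed the threshold, and most of the other intervals cross 0.

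Among the P-type ATPases the most abundant transcripts were those of the plasma membrane H+-ATPases. PMA3 (DsB_g15608, chromosome 8, 22177490 to 22190131, plus strand, 18 exons) had 188, 180.1 and 155 FPKM in replicates 1, 2 and 3 without added iron and 152, 167 and 179 FPKM in those with it. PMA2 (DsB_g05812), annotated as plasma membrane H+-ATPase, had 101, 99.1 and 93.5 FPKM without added iron and 91.8, 95.9 and 105 FPKM with it. The groups overlapped for both pumps, and replicate 3 was the lowest library of its group without added iron and the highest with it. The log2 fold change of PMA3 was 0.07, with a 95% interval from -0.19 to 0.33 (limma adjusted p = 0.759). By mean FPKM over the 6 libraries PMA3 ranked 412 and PMA2 ranked 727 among the 25081 genes in the table.

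The next in level were ECA2 and DsB_g09634. ECA2 (DsB_g16191), annotated as an endoplasmic reticulum-type Ca2+-ATPase, had 66.9, 62.9 and 55.3 FPKM without added iron and 53.8, 54.8 and 61.7 FPKM with it. DsB_g09634, with the same set of P-type ATPase domains, averaged 36.1 ± 2.67 FPKM without added iron and 33.6 ± 3.04 FPKM with it (SD, n = 3). Both overlapped between the groups and neither passed the test.

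CTP2 (DsB_g13907, chromosome 7, 20175497 to 20232957, minus strand, 22 exons) was the only P-type ATPase gene that passed. It carries the heavy-metal-associated domain PF00403, which binds copper or related metals in the copper-transporting P-type ATPases whose symbol it shares. Its level was 8.91, 8.85 and 10.1 FPKM in replicates 1, 2 and 3 without added iron, and 13.6, 13.3 and 13.9 FPKM in those with it. Every library without added iron was below every library with it. On the log2 scale it fell by 0.51 (limma, SE 0.0807, adjusted p = 0.00799). It was -0.55 in replicates 1 and 2 alone (limma adjusted p = 0.0150) and -0.42 between both replicate 3 libraries, and it passed in all 16 alternatives. A short model on the opposite strand, DsB_g13906, lies inside the gene, and the sources used here do not say whether reads were counted by strand.

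The other 3 genes with this metal domain did not pass. CTP4 had 10.7 ± 0.477 FPKM without added iron and 11.2 ± 0.491 FPKM with it, and CTP1 had 5.17 ± 0.311 FPKM without added iron and 4.37 ± 0.564 FPKM with it (SD, n = 3). CTP3 ranged over 7.94 to 10.1 FPKM without added iron and 9.81 to 10.3 FPKM with it. The groups overlapped for all 3. The difference between CTP2 and these paralogs was not tested. HMA1A and HMA1B, whose symbols are those of heavy-metal ATPases, were low as well, with means over all libraries of 3.56 and 7.54 FPKM. Over the 11 P-type ATPases other than CTP2, log2 fold changes ran from -0.22 to 0.20.

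The V-ATPase subunits were expressed at moderate levels and 0 of 3 passed the test, also at an unadjusted p under 0.05. ATPVE1 (DsB_g13286, chromosome 7, 11339860 to 11348534, minus strand), the peripheral stalk subunit E by its domain, had 50.0, 42.8 and 39.2 FPKM without added iron and 40.4, 38.7 and 46.4 FPKM with it. ATPVA (DsB_g08176), with the domain of the membrane subunit a, averaged 35.2 ± 2.84 FPKM without added iron and 35.0 ± 3.23 FPKM with it, and ATPVD2 (DsB_g24640), with that of the rotor subunit D, averaged 29.6 ± 4.65 and 28.5 ± 4.13 FPKM in the same order (SD, n = 3). The log2 fold change of ATPVE1 was 0.07, with a 95% interval from -0.21 to 0.34 (limma adjusted p = 0.776). In all 3 genes replicate 3 was the lowest library without added iron and the highest with it. Their median log2 difference was 0.22 in replicates 1 and 2 and -0.26 between both replicate 3 libraries.

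The remaining V-ATPase genes gave 0 calls as well. A list of 14 nuclear genes with the domains of the other subunits, which also takes in mitochondrial ATP synthase subunits because they share domains, had none that passed by limma. Of these 14, 3 had an unadjusted p under 0.05, and the calls numbered 1 with median-of-ratios factors, 5 with quantile normalization and 6 with columns rescaled to equal sums. In replicates 1 and 2 alone 3 of the 14 passed, ATP1A, ATP2 and ATP9A, which carry symbols of mitochondrial ATP synthase. Of the 12 genes in the table with an ATPV symbol, 0 passed, and 0 had an unadjusted p under 0.05. Among the 16 alternatives ATPVL1 passed in 2, and ATPVC1 and ATPVE1 in 1 each. Their log2 fold changes ran from -0.17 to 0.22. Replicate 3 was the lowest library without added iron in all 12 and the highest library with added iron in 10. These counts were 26 and 32 for the 61 members, and 17 and 14 for 23 genes of other cation transporters described below. They were not taken over all tested genes. What sets replicate 3 apart was not tested. The most abundant gene with an ATPV symbol was ATPVL1, with the domain of the membrane-ring subunit c. It had 267 ± 38.7 FPKM without added iron and 229 ± 30.0 FPKM with it (SD, n = 3).

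VPP1 (DsB_g21126, chromosome 12, 17658700 to 17672678, plus strand, 22 exons), the single H+-PPase gene, was the most abundant member of all, ranking 326 in the table. It had 267, 281 and 196 FPKM in replicates 1, 2 and 3 without added iron and 148, 179 and 209 FPKM in those with it. Replicates 1 and 2 without added iron were above every library with iron, while replicate 3 without added iron was below replicate 3 with it. The log2 fold change of 0.47, with a 95% interval from 0.06 to 0.87, did not pass (limma adjusted p = 0.143). In replicates 1 and 2 alone it was 0.75 and passed (limma adjusted p = 0.0232), and between both replicate 3 libraries it was -0.10. It passed in 4 of 16 alternatives.

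A soluble pyrophosphatase, which splits pyrophosphate without pumping protons, is annotated by the domain PF00719 on 3 genes. DsB_g17634 (chromosome 10, 8541811 to 8544582, minus strand) had 403, 402 and 295 FPKM without added iron and 209, 217 and 272 FPKM with it. It rose without added iron by 0.65 on the log2 scale (SE 0.158, limma adjusted p = 0.0406), and the adjusted p over the alternatives ran from 0.00228 to 0.146. The value was 0.91 in replicates 1 and 2 alone (limma adjusted p = 0.00530), and between both replicate 3 libraries it was 0.12. Its product name, a V-ATPase subunit, does not match its domain, so it was not counted as a V-ATPase gene. DsB_g10788, annotated as inorganic pyrophosphatase, had 129, 117 and 109 FPKM without added iron and 149, 145 and 169 FPKM with it. Its groups did not overlap, but it did not pass at -0.38 (limma adjusted p = 0.0650). DsB_g17636 averaged 4.40 ± 0.631 FPKM without added iron and 4.27 ± 0.777 FPKM with it (SD, n = 3).

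**Figure D2:**
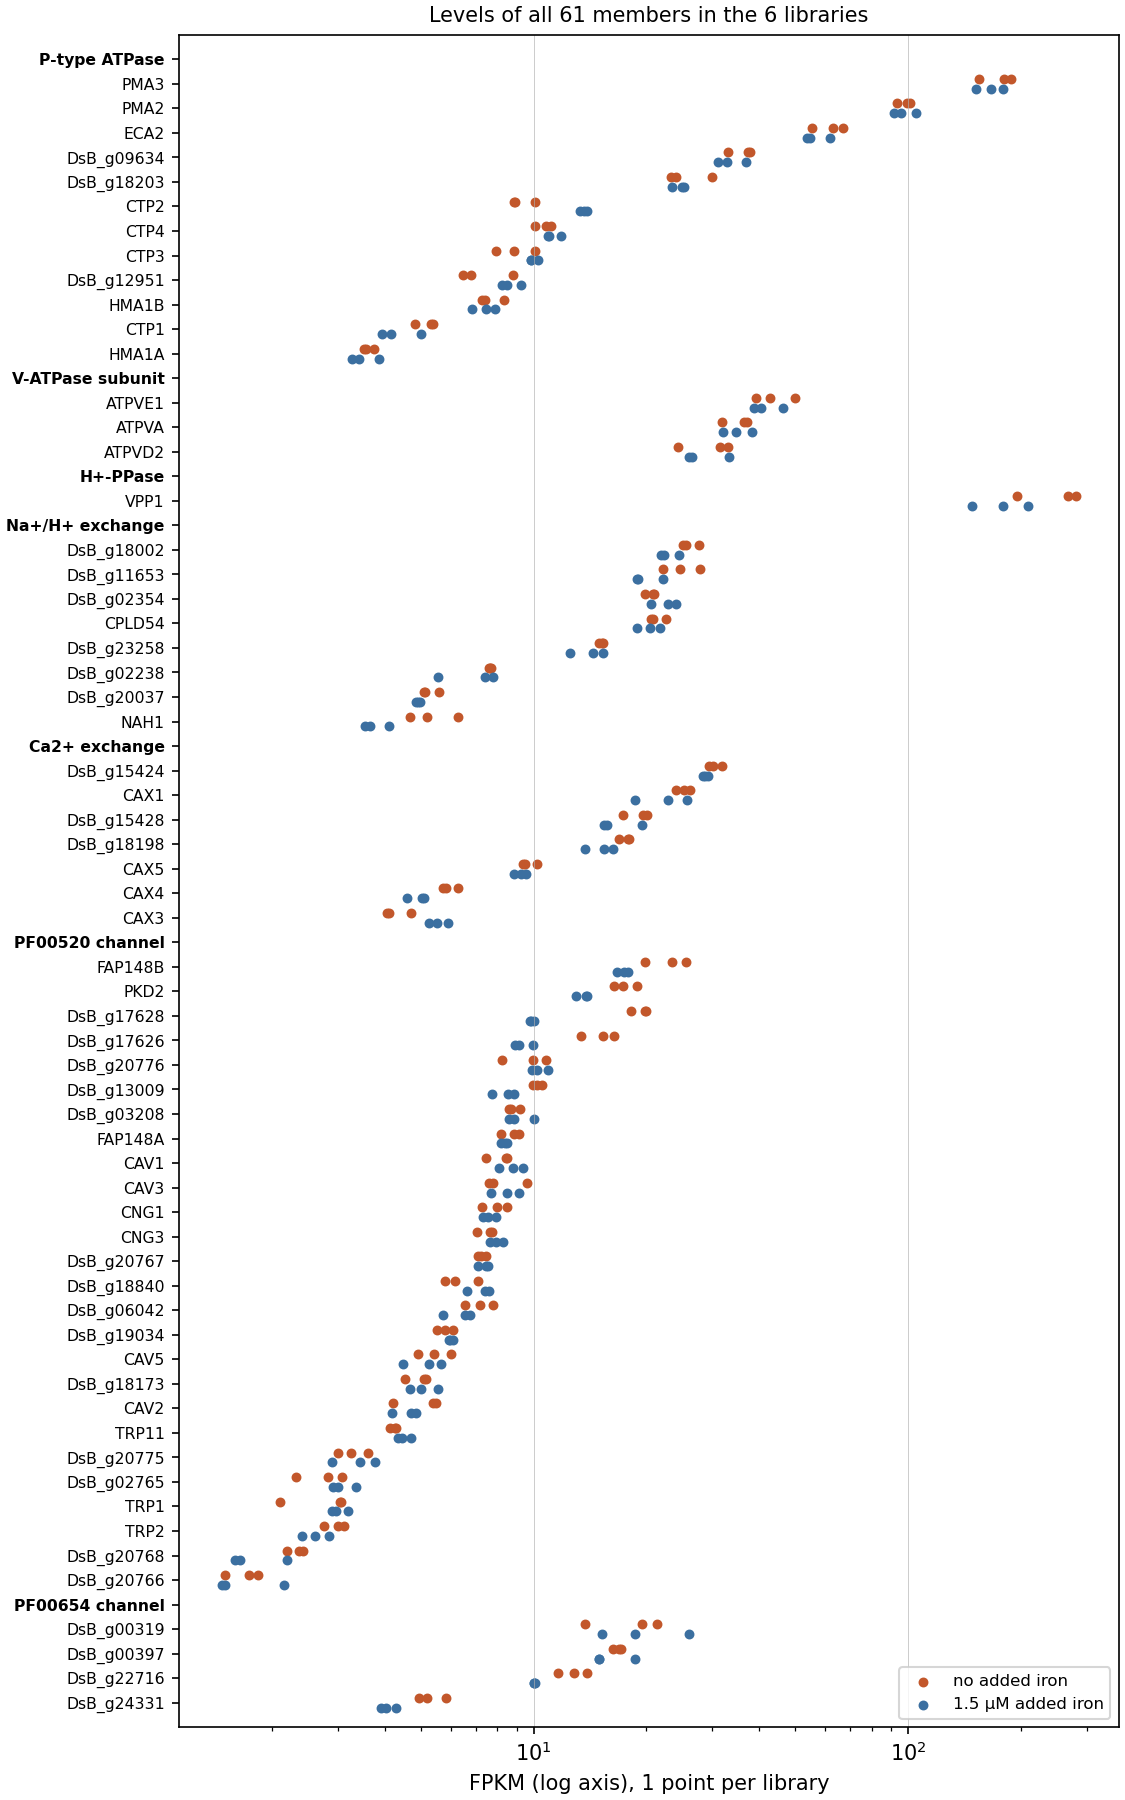
FPKM on a log axis for each of the 61 members in each of the 6 libraries, grouped by family, with libraries without added iron drawn above those with 1.5 µM added iron. VPP1, PMA3 and PMA2 are the most abundant members, most channel genes lie under 10 FPKM, and the libraries of both groups overlap for most members.

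None of the 8 genes with a Na+/H+ exchanger domain passed by limma. Of the 8, 2 had an unadjusted p under 0.05, as did 3473 of the 13909 tested genes. Exchangers of this family trade Na+ or K+ for protons at the plasma membrane, vacuole and plastid. The most abundant was DsB_g18002 (chromosome 10, 13006135 to 13030261, plus strand), with 27.6, 25.5 and 25.0 FPKM without added iron and 21.9, 22.3 and 24.5 FPKM with it. All libraries without added iron were higher, but the log2 fold change of 0.18 did not pass (limma adjusted p = 0.261). NAH1 (DsB_g00784, chromosome 1, 11802544 to 11814435, minus strand) had 5.19, 6.26 and 4.67 FPKM without added iron and 3.54, 4.11 and 3.65 FPKM with it. This again separated the groups, and the log2 fold change of 0.41 (95% interval 0.15 to 0.67) had a limma adjusted p of 0.0597. NAH1 passed in 2 of the 15 alternatives that tested it, with limma adjusted p from 0.0184 to 0.189. DsB_g11653, with 27.9, 24.6 and 22.2 FPKM without added iron and 19.0, 18.9 and 22.1 FPKM with it, did not pass at 0.30 (limma adjusted p = 0.136). It did in 4 of 16 alternatives, among them replicates 1 and 2 alone (0.45, limma adjusted p = 0.0392), and the difference between both replicate 3 libraries was 0.01. The groups did not overlap for 4 of the 8 genes, all higher without added iron, and among all tested genes 14.2% were higher and 16.0% lower in this way. Log2 fold changes of the family ran from -0.13 to 0.41 with a median of 0.12, which was 0.30 with columns rescaled to equal sums.

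The 7 genes with the Ca2+ exchanger domain also gave 0 calls by limma. An unadjusted p under 0.05 was found for 3 of the 7, and for 3473 of the 13909 tested genes. The members with CAX symbols are named after the vacuolar Ca2+/H+ exchangers of plants. CAX3 (DsB_g19333, chromosome 11, 11380059 to 11408514, plus strand) differed most in size, with 4.12, 4.07 and 4.70 FPKM without added iron and 5.25, 5.52 and 5.91 FPKM with it. All libraries without added iron were lower, and the log2 fold change was -0.31 (95% interval -0.51 to -0.11, limma adjusted p = 0.0689). CAX3 passed in 2 of the 15 alternatives that tested it, with limma adjusted p from 0.0342 to 0.287. CAX4 separated the other way, with 5.94 ± 0.291 FPKM without added iron and 4.91 ± 0.273 FPKM with it (SD, n = 3; limma adjusted p = 0.117). The most abundant gene of the family, DsB_g15424 (chromosome 8, 19315279 to 19346563, plus strand), had 31.8, 29.4 and 30.2 FPKM without added iron and 28.6, 29.2 and 28.3 FPKM with it, which is 0.08 on the log2 scale (limma adjusted p = 0.576). It carries Calx-beta domains (PF03160), as does its neighbour DsB_g15428, whose level was 19.0 ± 1.52 FPKM without added iron and 16.9 ± 2.29 FPKM with it (SD, n = 3). The groups did not overlap for 4 of the 7 genes, 3 higher (CAX4, DsB_g15424 and DsB_g18198) and 1 lower (CAX3) without added iron. Among all tested genes 14.2% were higher and 16.0% lower in this way. Log2 fold changes of the family ran from -0.31 to 0.23 with a median of 0.17, which was 0.35 with columns rescaled to equal sums.

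The channel genes held the largest fold change of the list. DsB_g17628 (chromosome 10, 8345822 to 8381980, plus strand, 26 exons) combines the PF00520 ion transport domain with ankyrin repeats, short protein-binding modules found in several channel families. It had 18.2, 19.8 and 19.9 FPKM in replicates 1, 2 and 3 without added iron and 9.81, 9.99 and 9.76 FPKM in those with it. Each library without added iron was well above each library with iron, and replicate 3 did not stand apart. On the log2 scale it rose by 0.90 (limma, SE 0.0760, adjusted p = 3.89e-04).

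DsB_g17626 (chromosome 10, 8283839 to 8328242, plus strand, 32 exons) has the same combination of domains and lies 17579 nt upstream on the same strand, with 1 other model between. It had 16.4, 15.3 and 13.4 FPKM without added iron and 8.93, 9.12 and 9.95 FPKM with it. The groups were again separate, with replicate 3 nearest to the other group in both. On the log2 scale it rose by 0.63 (limma, SE 0.0941, adjusted p = 0.00602). Both genes passed in all 16 alternatives, with log2 fold changes of 0.71 to 1.11 for DsB_g17628 and 0.48 to 0.83 for DsB_g17626. In replicates 1 and 2 alone these were 0.87 and 0.75, and between both replicate 3 libraries 0.96 and 0.40. The sources used here do not say how reads that fit more than 1 gene were assigned, and the similarity of these genes in sequence was not analysed here.

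**Figure D3:**
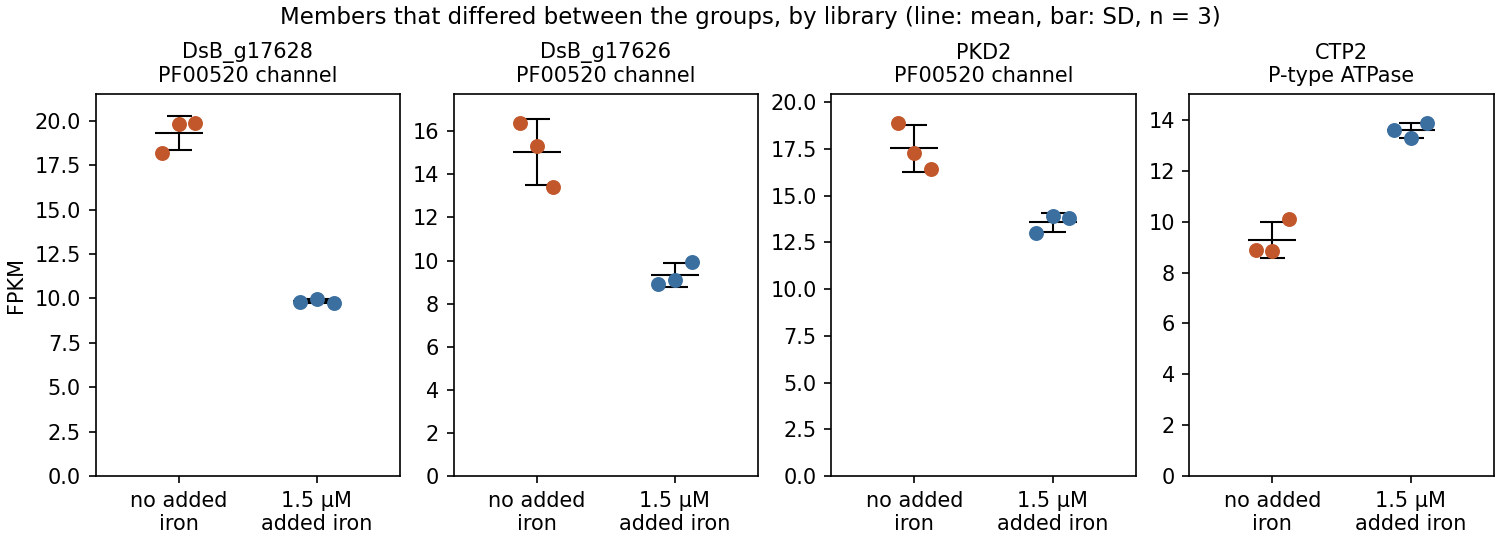
FPKM in each library (points), with mean (line) and SD (bar, n = 3), for the 4 members that passed the threshold, no added iron on the left and 1.5 µM added iron on the right of each panel. DsB_g17628, DsB_g17626 and PKD2 are higher and CTP2 is lower in every library without added iron.

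Most genes beside this pair did not pass. Within 200 kb of the first base of DsB_g17628 lay 16 models, of which 11 were tested. Over all tested genes 9.39% passed, and in this window 3 models did. These were both channel genes and, at the far edge, the pyrophosphatase gene DsB_g17634. On the log2 scale POLE2, the next model downstream, had 0.07 (limma adjusted p = 0.719), and DsB_g17625, just upstream of DsB_g17626 on the other strand, had 0.27 (limma adjusted p = 0.246). FAP148A, another PF00520 gene in the window, had 0.06 (limma adjusted p = 0.698). The window was centred on DsB_g17628 and chosen after its values were seen, so the call of that gene was fixed beforehand.

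**Figure D4:**
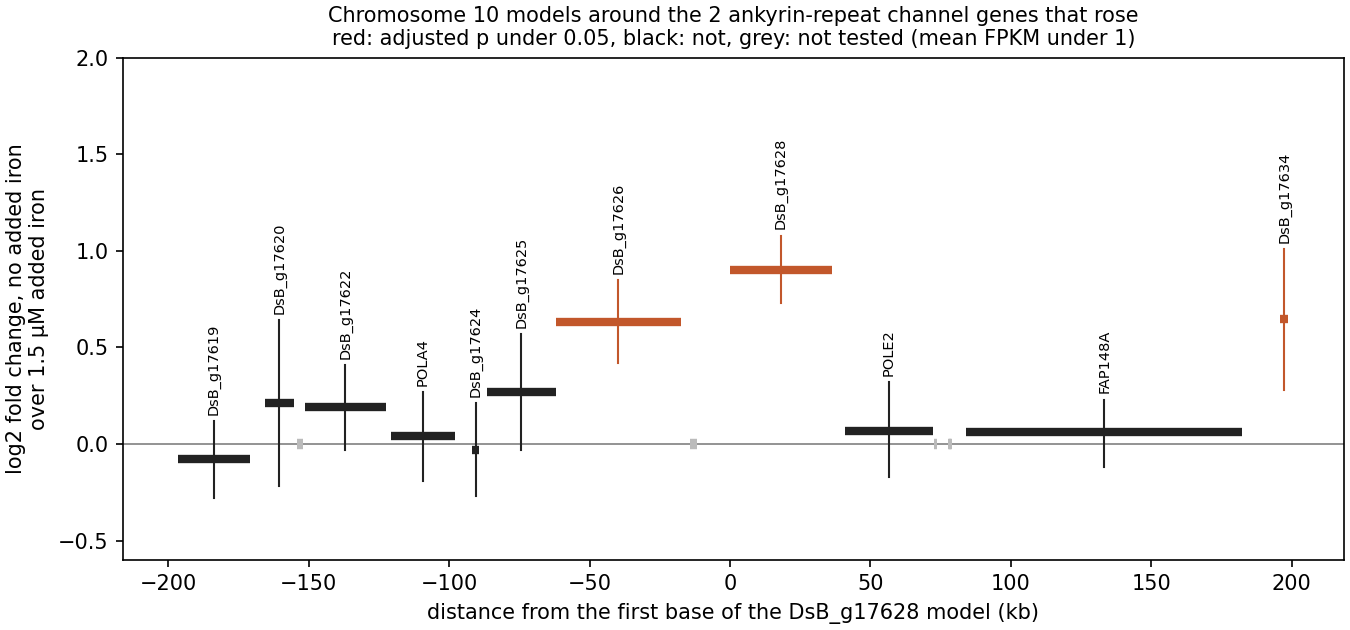
Log2 fold change of no added iron over 1.5 µM added iron for the models around DsB_g17628, plotted against distance from its first base in kb, with horizontal bars for the gene spans and vertical lines for the 95% intervals. Both ankyrin-repeat channel genes and DsB_g17634 passed the threshold, and the other 8 tested models lie between -0.08 and 0.27.

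Other ankyrin-repeat channel genes did not pass. Of 9 PF00520 genes with such repeats, the 2 described above rose and 7 did not pass. The calls were 22.2% of the 9, against 9.39% of all tested genes. The median log2 fold change of the 9 was -0.01. Another run of PF00520 genes lies on chromosome 12, where DsB_g20766, DsB_g20767, DsB_g20768, DsB_g20775 and DsB_g20776 lie between 12557093 and 12737782. All 5 were within -0.09 to 0.25 on the log2 scale and 0 passed by limma, with 0 at an unadjusted p under 0.05. The most abundant of them, DsB_g20776, averaged 9.67 ± 1.31 FPKM without added iron and 10.3 ± 0.519 FPKM with it (SD, n = 3).

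PKD2 (DsB_g01222, chromosome 1, 17975033 to 18000251, plus strand, 25 exons) shares its symbol with a polycystin channel of the cilium in *Chlamydomonas*. It had 18.9, 17.3 and 16.4 FPKM without added iron and 13.0, 13.9 and 13.8 FPKM with it. All libraries without added iron were higher, and the gene rose by 0.35 on the log2 scale (limma, SE 0.0846, adjusted p = 0.0411). The call was less secure than the others: it held in 8 of 16 alternatives, with adjusted p from 0.00311 to 0.137, and was lost when any 1 library was left out, apart from replicate 3 of no added iron. In replicates 1 and 2 alone the value was 0.40 (limma adjusted p = 0.0449), and between both replicate 3 libraries it was 0.24. Its 5′ end overlaps DsB_g01221 on the other strand. DsB_g13009 (chromosome 7, 7257077 to 7299561, minus strand), the only member with the polycystin channel domain PF08016, had 10.2, 9.96 and 10.5 FPKM without added iron and 8.56, 8.86 and 7.75 FPKM with it. Its groups were separate too, but 0.26 did not pass (limma adjusted p = 0.0798).

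Other channels with ciliary or sensory namesakes mostly overlapped between the groups. FAP148B (DsB_g17692, chromosome 10, 9034775 to 9090179, minus strand), named after a flagellar associated protein and carrying WD40 repeats, was the most abundant PF00520 gene, with 25.5, 23.4 and 19.8 FPKM without added iron and 16.7, 17.4 and 17.9 FPKM with it. Every library without added iron was higher, and the log2 fold change of 0.38 (95% interval 0.13 to 0.62) did not pass (limma adjusted p = 0.0651). It did in 6 of 16 alternatives, among them replicates 1 and 2 alone (0.50, limma adjusted p = 0.0244), and the difference between both replicate 3 libraries was 0.13. FAP148A averaged 8.72 ± 0.466 FPKM without added iron and 8.35 ± 0.162 FPKM with it (SD, n = 3).

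The 4 genes with CAV symbols, those of voltage-gated Ca2+ channels, had means over all libraries of 4.80 to 8.44 FPKM, and 0 of them passed or had an unadjusted p under 0.05 by limma. Their median log2 difference was -0.12 in replicates 1 and 2 and 0.31 between both replicate 3 libraries, so the replicates went opposite ways. The cyclic nucleotide-binding channel genes CNG1 and CNG3 had means of 7.76 and 7.71 FPKM, and both overlapped between the groups. The TRP genes were low. TRP11, whose *Chlamydomonas* namesake acts in ciliary mechanosensing, had 4.23 ± 0.0866 FPKM without added iron and 4.50 ± 0.187 FPKM with it, and TRP2 had 2.96 ± 0.189 and 2.62 ± 0.215 FPKM in the same order (SD, n = 3). The groups did not overlap for TRP11, but the difference of -0.07 on the log2 scale did not pass (limma adjusted p = 0.627). The lowest member of all was DsB_g20766, with 1.69 ± 0.172 FPKM without added iron and 1.71 ± 0.389 FPKM with it (SD, n = 3). Over the 23 PF00520 genes that did not pass, log2 fold changes ran from -0.16 to 0.38 with a median of -0.02.

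The 4 genes with the chloride channel domain, which marks channels and Cl-/H+ exchangers of the CLC family, gave 0 calls by limma. Of the 4, 2 had an unadjusted p under 0.05, as did 3473 of the 13909 tested genes. DsB_g22716 (chromosome 14, 7574293 to 7628158, plus strand) had 13.9, 12.8 and 11.6 FPKM without added iron and 10.1 ± 0.0659 FPKM with it (SD, n = 3). The groups were separate, and the log2 fold change was 0.31 (95% interval 0.12 to 0.51, limma adjusted p = 0.0589). It passed in 6 of 16 alternatives, among them replicates 1 and 2 alone (0.37, limma adjusted p = 0.0462), and the difference between both replicate 3 libraries was 0.19. DsB_g24331 was separate as well, with 5.32 ± 0.465 FPKM without added iron and 4.08 ± 0.203 FPKM with it (SD, n = 3; limma adjusted p = 0.0690). Both carry CBS domains (PF00571), the cytoplasmic regulatory modules of this family. DsB_g00397 carries them too, but its groups overlapped, with 16.8 ± 0.422 FPKM without added iron and 16.1 ± 2.10 FPKM with it (SD, n = 3). Its log2 fold change was 0.06 (limma adjusted p = 0.768). DsB_g00319 (chromosome 1, 5025682 to 5053602, plus strand), without CBS domains, was the most abundant, with 19.5, 13.7 and 21.3 FPKM without added iron and 26.0, 18.6 and 15.2 FPKM with it. Its log2 fold change of -0.12 had the widest interval of the 61 members, -0.61 to 0.37 (limma adjusted p = 0.780).

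Related genes outside the rule were counted in the same fit. Among 17 other channel genes 1 passed, 5.88% of those tested against 9.39% of all tested genes: BST1 (DsB_g11463, chromosome 6, 9640532 to 9653101, minus strand), a bestrophin, the family of the thylakoid bicarbonate channels in *Chlamydomonas*. It had 18.7, 17.7 and 19.7 FPKM without added iron and 28.8, 33.2 and 33.6 FPKM with it, and fell by 0.74 on the log2 scale (SE 0.0949, limma adjusted p = 0.00303), in all 16 alternatives. The most abundant bestrophin gene, its neighbour DsB_g11464, had 47.5, 22.7 and 62.9 FPKM without added iron and 119.8, 80.4 and 50.3 FPKM with it. These overlapped, and the log2 fold change of -0.93 (95% interval -1.85 to 0.00) did not pass (limma adjusted p = 0.202).

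Of 18 tested genes with partner domains of P-type ATPases 3 passed, 16.7% of them, against 9.39% of all tested genes. ALA3 (DsB_g15342), with 28.5 ± 1.45 FPKM without added iron and 21.0 ± 0.760 FPKM with it, and ALA1 (DsB_g12711), with 14.7 ± 1.29 FPKM without added iron and 10.9 ± 0.605 FPKM with it, rose by 0.42 and 0.40 on the log2 scale (SD, n = 3; limma adjusted p = 0.0194 and 0.0317). Their symbols are those of aminophospholipid flippases, P-type ATPases that move lipids rather than ions, and the annotation lists no PF00122 domain for them. The third, DsB_g00999, has domains of soluble phosphatases and fell by 0.36 on the log2 scale, with 7.83 ± 0.405 FPKM without added iron and 10.3 ± 0.143 FPKM with it (SD, n = 3; limma adjusted p = 0.0221). Leaving out replicate 2 of no added iron, replicate 1 of added iron or replicate 2 of added iron left 0 of the 3, and leaving out replicate 1 of no added iron or replicate 3 of added iron left 1.

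Of 23 genes with domains of other cation transporters, solute carriers or soluble pyrophosphatases, 5 rose and 0 fell. These calls were 21.7% of the list, named the cation transporter list below, against 4.19% higher and 5.20% lower among all tested genes. Besides DsB_g17634 these were LCI20, named after a plastid dicarboxylate transporter of *Chlamydomonas*, DUR3G and DUR3F of the urea transporter family, and SLT5, whose *Chlamydomonas* namesakes are sodium and sulfate transporters. LCI20 (DsB_g04070) had 155, 151 and 114 FPKM without added iron and 86.4, 80.5 and 91.7 FPKM with it, a rise of 0.68 on the log2 scale (limma, SE 0.136, adjusted p = 0.0197). It was 0.87 in replicates 1 and 2 alone (limma adjusted p = 0.00594), and between both replicate 3 libraries it was 0.31. The log2 fold changes of DUR3G, DUR3F and SLT5 were 0.37, 0.43 and 0.31 (limma adjusted p of 0.0244, 0.0459 and 0.0379). The list held 0 calls without replicate 1 or 2 of either group, 1 without replicate 3 of added iron and 7 without replicate 3 of no added iron.

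Members were long genes of many exons. Their median exon length was 4069 nt, against 1544 nt for all tested genes, and they had a median of 24.0 exons, against 8. Their median level of 9.31 FPKM was close to the 9.87 FPKM of all tested genes, and the median SD within groups was 0.108 on the log2 scale, against 0.132. They lay on 15 of the 16 chromosomes. Chromosomes 1 and 10 held 9 members each and chromosome 12 held 7, and in 7 cases a member was followed by the next one within 50000 nt. The shortest of these gaps, 691 nt, separated DsB_g20766 and DsB_g20767 on opposite strands.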

How the data were processed

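The 6 poly(A) libraries were read as 50 nt single-end reads, aligned with STAR 2.4.0j to the authors' assembly and quantified with Cuffdiff 2.0.2, per the series' design text and the submitters' processing notes. The deposited values are FPKM per gene and library, computed by the authors. The sources used here do not give their counting of multi-mapped reads, use of strand or scaling of libraries. Coordinates count from 1 and are those of the authors' annotation, version 1.1, which holds 25074 models.

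FPKM values are not counts. A search for the step of 1 read gave implied depths, but only 23.2% to 43.9% of values worth under 10 reads came within 0.05 of a whole number of reads, so whole reads were not recovered and no count model was run. Genes whose FPKM averaged at least 1 were compared on log2(FPKM + 1) with limma 3.58.1 in R 4.3.3 (group as the only term, mean-variance trend, two-sided, Benjamini-Hochberg over 13909 genes, threshold 0.05). The fit was tested on simulated data first. Figures used matplotlib 3.10.9 in Python 3.11.15.

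The rule for the members uses annotation alone, but it and the lists were chosen with earlier results of these data known. Named were all members that passed, the most abundant member and the one with the largest fold change in each family, and related genes that passed (at most 6 per list). Other members are given as levels, counts and ranges, and those named besides were chosen after their values were seen. A total of 16 alternatives were tried: other pseudocounts, filters, scalings, variance models, libraries left out and the replicate number as a block. No protein or promoter sequence was used here.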

Additional observations from a re-analysis of the deposited data

How the results depend on the processing

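DsB_g17628, DsB_g17626, CTP2 and BST1 kept their direction and passed in all 16 alternatives. Of 382 fold changes of named genes recomputed, 288 kept direction and side of the threshold, 65 no longer passed, 25 newly passed and 4 changed sign. Those 4 were ATPVE1 without replicate 1 of no added iron (-0.03) and DsB_g00319 with rescaled columns (0.06), without replicate 2 of no added iron (0.06) and without replicate 1 of added iron (0.08), none of which passed. Leaving out 1 library at a time gave -0.03 to 0.15 for ATPVE1 and -0.29 to 0.08 for DsB_g00319. With each column rescaled to 1000000, calls over the table numbered 3736 and 21 members were higher, and the lists of other V-ATPase domains, P-type partner domains, other channels and other cation transporters held 6, 7, 6 and 14 calls. With median-of-ratios factors 6 members were higher, and the V-ATPase and channel lists held 1 and 2 calls. With quantile normalization 2143 genes differed, 7 members were higher and 2 lower, and the V-ATPase, partner and channel lists held 5, 6 and 2 calls. With a minimum mean of 5 FPKM, 48 members were tested, and 5 were higher and 1 lower. These calls were 12.5% of them, against 12.8% of all genes tested in that setting, and the channel list held 2 calls. Without the filter the cation transporter list held 2. In replicates 1 and 2 alone 7 members were higher and the V-ATPase and channel lists held 3 and 2 calls. Leaving out 1 library at a time gave 586 to 1784 differing genes, 2 to 7 members higher and 1 to 3 lower, and 0 to 1, 0 to 3, 1 to 2 and 0 to 7 calls in the 4 lists. The cause of these shifts was not tested.

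Deviations of same-numbered libraries correlated by 0.0246, 0.0776 and -0.135 for replicates 1, 2 and 3, so the numbers were not used as a pairing. Both replicate 3 libraries share a step pattern, and whether a number marks a batch was not settled. With the replicate block 813 genes differed over the table, 5.85% of those tested. Of the members 2 were higher and 1 lower, 4.92% of the list, and the partner and cation transporter lists held 0 calls. Without counts, the sampling error of the lowest members is unknown.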
